A study of Homo sapiens with 4 samples.

Results

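The genes described here encode the subunits of the 3 nuclear RNA polymerases and of Mediator, and they were chosen by symbol alone: POLR1, POLR2 or POLR3 followed by a letter, MED followed by a number, and CDK8, CDK19 and CCNC. This gave 62 of the 15357 genes in the table, of which 5 were assigned to Pol I, 15 to Pol II, 10 to Pol III and 32 to Mediator. POLR2M, which encodes a factor associated with Pol II, was counted with Pol II. The small subunits shared by all 3 enzymes were counted only with Pol II. POLR1C and POLR1D, shared by Pol I and Pol III, were counted only with Pol I. All 62 had enough reads to be tested, among 11955 genes tested in all. The cells were RKO, a human colorectal cancer line, infected with lentivirus to express an shRNA stably. The vector group held 2 control samples (genotype control) and the shCHD7_2 group held 2 samples with CHD7 knockdown by CHD7 shRNA2, a single hairpin against the mRNA of the chromatin remodeller CHD7. Libraries were made from RNA captured on oligo-dT beads, and no label says whether the 2 samples of a group came from separate cultures, so the p-values measure the spread between these samples, which may be technical.

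Pol I transcribes the large ribosomal RNA precursor, Pol II the mRNAs and many non-coding RNAs, and Pol III the tRNAs and other small RNAs. Each enzyme has a pair of large catalytic subunits of its own and takes a set of small subunits that all of them share. Mediator is the large complex that bridges gene-specific activators and Pol II at promoters, built from head, middle and tail modules held by MED14, with a kinase module (CDK8 or CDK19, cyclin C, MED12 and MED13) that can dissociate.

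Per length, the subunit mRNAs spanned from 3.76 to 206.7 FPKM (mean of 4 samples; fragments per kilobase of transcript and library size), against a median of 12.8 FPKM over all genes tested. The highest were POLR1D at 206.7, POLR2K at 134.6 and POLR2G at 121.9 FPKM, and the lowest were MED26 at 3.76, POLR3B at 4.03 and CDK19 at 4.79 FPKM. POLR1D lay above POLR2K in every sample, at 199.1 to 211.2 against 126.7 to 144.1 FPKM. POLR2K and POLR2G were not separated, since POLR2G ran from 113.1 to 135.6 FPKM, and nor were MED26, at 3.52 to 4.04 FPKM, and POLR3B, at 3.57 to 4.60 FPKM. The class medians were 35.6 FPKM for Pol I, 48.3 for Pol II, 18.5 for Pol III and 16.9 for Mediator. Within each polymerase the largest catalytic subunit was among the least abundant per length. POLR1A averaged 9.21 FPKM, POLR2A 15.0 FPKM and POLR3A 13.6 FPKM. Across the 62 members FPKM fell with the transcript length implied by the ratio of count to FPKM (Spearman's rho -0.56, and -0.33 over all genes with annotated transcripts). That is a description across genes of the same 4 libraries, and FPKM itself contains length in its denominator.

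**Figure D1:**
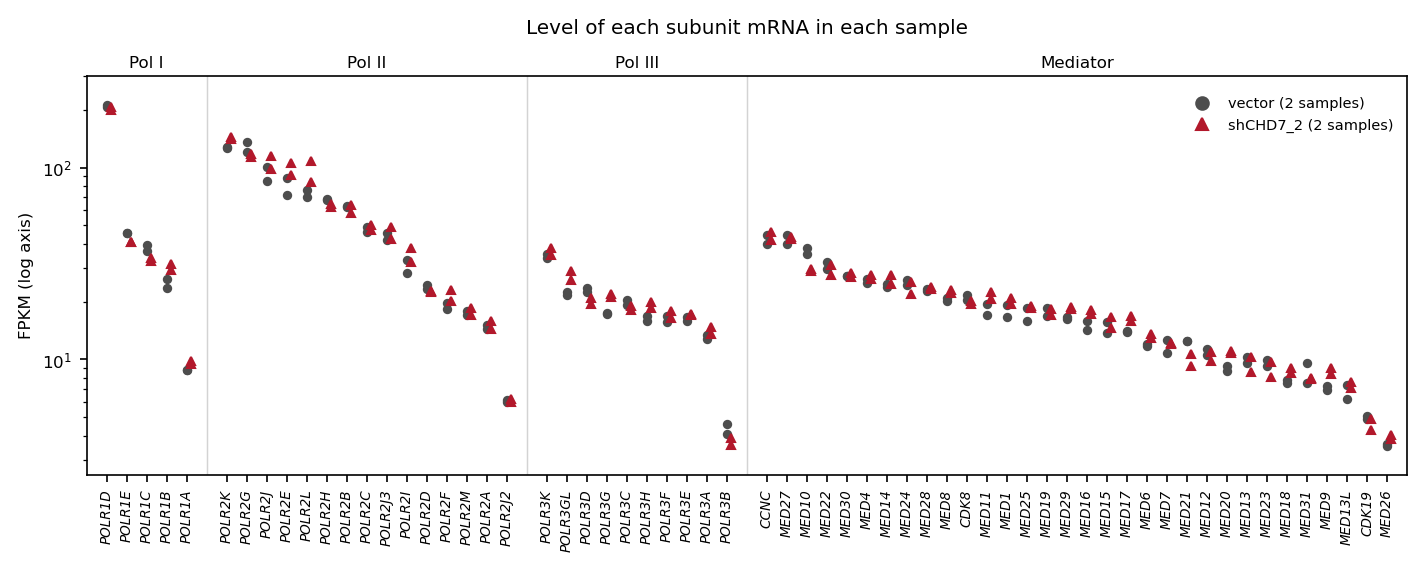
Level of each of the 62 subunit mRNAs in each sample, in FPKM on a log axis, ordered by mean within Pol I, Pol II, Pol III and Mediator, with vector samples as circles and shCHD7_2 samples as triangles. POLR1D is highest at a mean of 206.7 FPKM and MED26 lowest at 3.76 FPKM, and the symbols of the 2 groups lie close together for every gene beside the distance between genes.

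The estimated reads summed to between 15734679 and 16068650 per library, and members had between 161 and 3956 reads per sample. CHD7 itself was at 85.4 and 91.0 CPM (counts scaled to library size by TMM) in the vector samples and 55.5 and 50.1 CPM in the shCHD7_2 samples (log2 fold change -0.74, SE 0.088, adjusted p = 4.2e-06). The epithelial and intestinal markers EPCAM, KRT8, KRT18 and CDX2 were present (summed colon epithelial level 115.2 to 133.6 CPM over 7 of 10 markers with a value), whereas CDH1, KRT20 and LGALS4 had at most 1 read in any sample. CD68 was at 907.8 and 850.2 CPM in vector and 997.2 and 1024 CPM in shCHD7_2 samples (log2 fold change 0.20, adjusted p = 0.062) while the other immune marker, ITGAM, had at most 2 reads. Endothelial markers summed to at most 0.19 CPM, and fibroblast markers to 2.15 to 4.58 CPM, nearly all ACTA2, which was higher in shCHD7_2 samples (2.19 and 2.09 against 3.43 and 4.14 CPM, log2 fold change 0.82, adjusted p = 0.0258). The part of either marker in the members' values was not tested.

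The comparison of shCHD7_2 with vector asked which mRNAs changed when CHD7 was knocked down. No polymerase or Mediator subunit passed the study's thresholds of a Benjamini-Hochberg adjusted p under 0.05 together with at least a 1.5-fold change, by the quasi-likelihood test of edgeR (0 of 62), while 2.88% of all genes tested did. DESeq2 also called 0 of 62, but it called fewer genes in all, 221 against 344 in the edgeR test. In the edgeR test 13 members (21.0%) were under an unadjusted p of 0.05, where the background was 25.4%. At an adjusted p under 0.05 without a fold threshold 3 members passed, or 4.84% against a background of 11.5%. POLR2L was higher (4.94% of all genes were called higher), and MED10 and MED21 were lower (6.54% of all genes were called lower). The log2 fold changes of the 62 members ran from -0.38 to 0.36 with a median of 0.010, and 33 were positive and 29 negative. The median over all genes tested was 0.00056, and the median absolute log2 fold change was 0.12 for members and 0.13 for all genes.

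The precision of the estimates limits how large a missed change could be, but it depended on the fit. The intervals here are those of the report's fit. For 61 of 62 members (98.4%) the 95% interval lay wholly within a 1.5-fold change in either direction, which held for 80.5% of all genes tested. The exception in that fit was MED21, whose interval reached -0.586. MED10, reaching -0.577, and POLR2L, reaching 0.581, lay only just inside. Standard errors of MED10, MED21 and POLR2L were 0.14, 0.14 and 0.13 in DESeq2, and 0.080, 0.092 and 0.14 without the filter on low counts. Without shCHD7_2 replicate 1 the log2 fold change of POLR2L was 0.54. The 2 groups did not overlap for 31 members, 17 with both shCHD7_2 samples higher and 14 with both lower, and they did not overlap for 53.7% of all genes tested. An exact permutation of 2 samples against 2 has a smallest two-sided p of 0.333, and each gene was therefore judged by the fit across all genes. In bulk RNA, fewer cells that contain an mRNA and less of it per cell cannot be told apart.

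**Figure D2:**
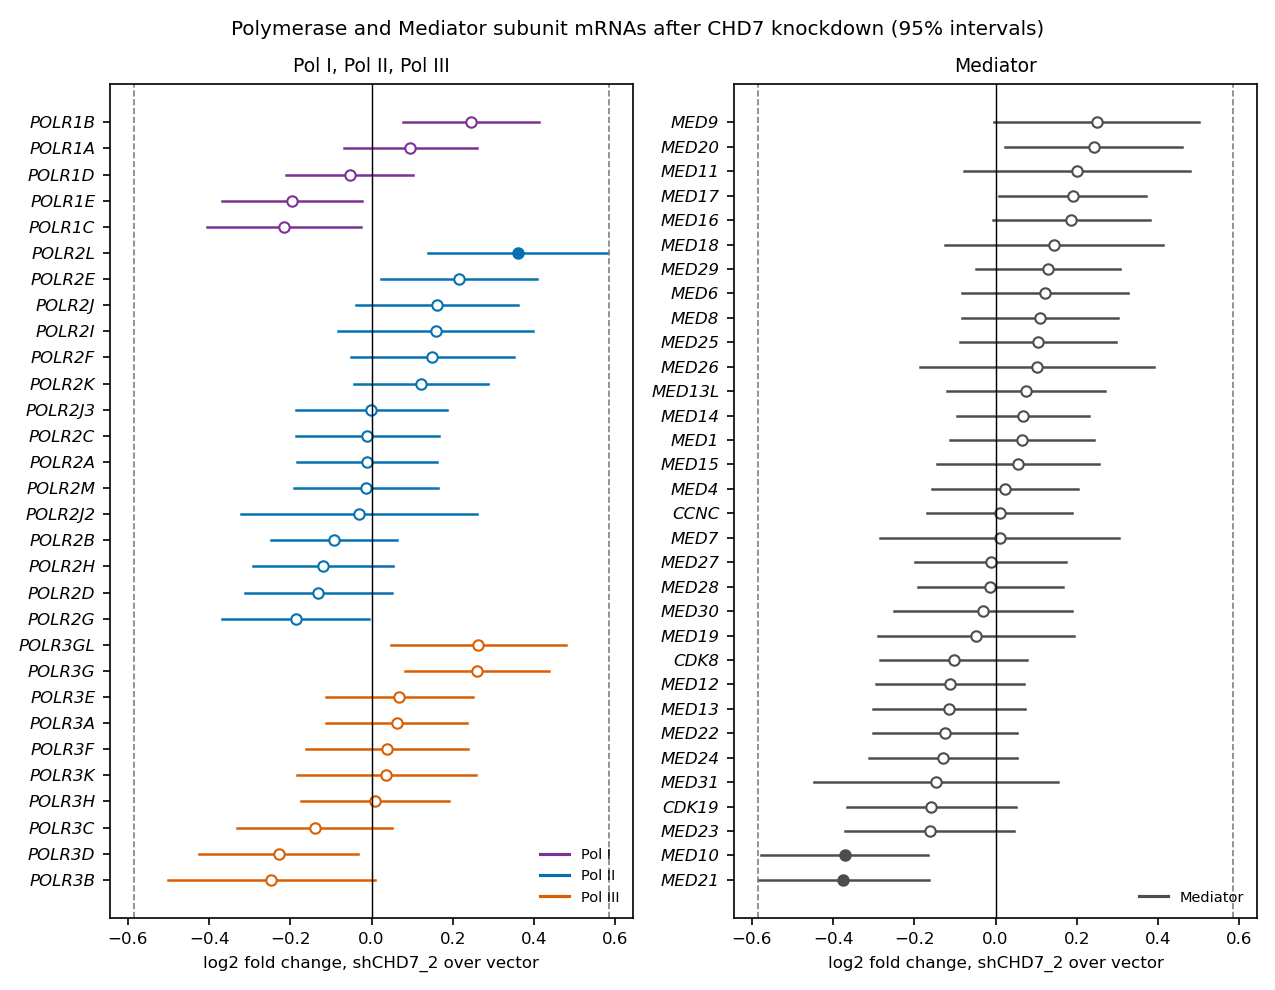
Log2 fold change of each of the 62 subunit mRNAs, shCHD7_2 over vector, with 95% intervals, polymerases on the left and Mediator on the right. Filled points (MED10, MED21 and POLR2L) have an adjusted p under 0.05, dashed lines mark a 1.5-fold change, and the point estimates lie between -0.38 and 0.36.

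MED10 and MED21 both encode small subunits of the Mediator middle module. MED10, on the minus strand at chr5:6371881-6378594, had 33.5 and 31.2 CPM in the vector samples and 24.5 and 25.5 CPM in the shCHD7_2 samples. Both shCHD7_2 samples were below both vector samples, and the means of 32.4 ± 1.60 and 25.0 ± 0.71 CPM (SD, n = 2) gave a log2 fold change of -0.37 (SE 0.099, adjusted p = 0.0155). MED21, on the plus strand at chr12:27022546-27066343, had 32.3 and 32.2 CPM in the vector samples and 26.5 and 23.2 CPM in the shCHD7_2 samples. Its groups also did not overlap, as for 53.7% of all genes tested, and the log2 fold change was -0.38 (SE 0.10, adjusted p = 0.0171). Neither call held in DESeq2 (adjusted p = 0.102 for MED10 and 0.110 for MED21) or without the filter on low counts (0.0976 and 0.124). Without vector replicate 1 MED10 had a log2 fold change of -0.32 (adjusted p = 0.16), and without shCHD7_2 replicate 2 MED21 had one of -0.28 (adjusted p = 0.144). MED21 also missed the threshold without vector replicate 1 (-0.37, adjusted p = 0.0802) and without vector replicate 2 (-0.38, adjusted p = 0.101).

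POLR2L encodes one of the small subunits common to Pol I, Pol II and Pol III and lies on the minus strand at chr11:837356-842545. It had 55.5 and 50.7 CPM in the vector samples and 58.7 and 77.6 CPM in the shCHD7_2 samples. The lower shCHD7_2 sample was close to the higher vector sample, and the second shCHD7_2 sample stood well above all others. The log2 fold change was 0.36 (SE 0.11, adjusted p = 0.029), and without shCHD7_2 replicate 2 it was 0.15 (adjusted p = 0.459). In DESeq2 its adjusted p was 0.0824, and without vector replicate 2 the fold change was 0.30 (adjusted p = 0.216).

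**Figure D3:**
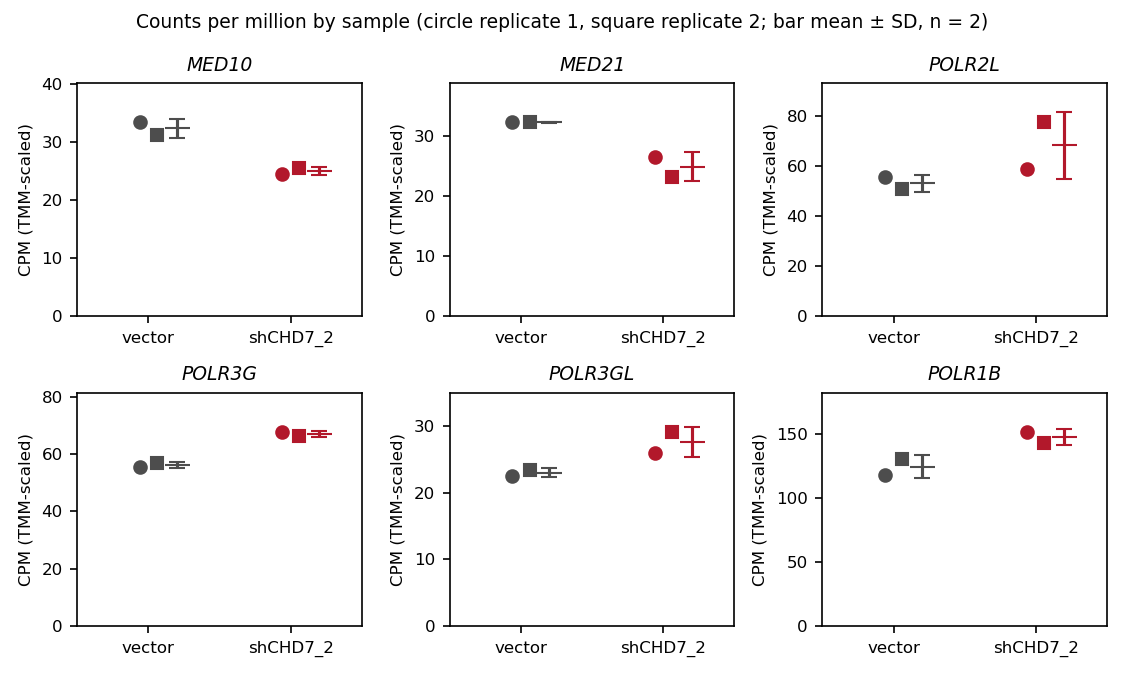
TMM-scaled CPM in each sample for the 3 members with an adjusted p under 0.05 (MED10, MED21, POLR2L) and for POLR3G, POLR3GL and POLR1B, with replicate 1 as a circle, replicate 2 as a square and the mean ± SD (n = 2) beside them; axes start at 0. The groups do not overlap in any panel, as for 53.7% of all genes tested. For POLR2L the shCHD7_2 samples, at 58.7 and 77.6 CPM, are farther apart than its vector samples.

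The longest annotated 3′ UTRs of the members were searched, on the mRNA strand, for 3 words of 7 bases that had been picked earlier for their association with lower values in these same 4 libraries. The first was AGCTATT. The next word searched was GAAGCTA. The last of them was GCTATTA. They are therefore not independent of the fold changes. The first and the last overlap, so that a single stretch can hold both. At least 1 word was present in 11 of the 61 members with a 3′ UTR (18.0%) and in 22.3% of the 11692 such genes tested. The median log2 fold change was -0.10 for those 11 members and 0.037 for the other 50, against -0.079 and 0.021 over all genes. MED21 held AGCTATT at 2 sites, while MED10 and POLR2L held no word. The site sequences are shown for MED21, the member past the threshold that has one, and for the members whose site spells both overlapping words. Capitals mark the words, and the positions are those of the printed stretch in GRCh38 with transcripts of GENCODE 29, all within the 3′ UTR.
MED21 (chr12:27028578-27028606, plus strand, first of its sites): attacctttttAGCTATTtttaatagtct
POLR3B (chr12:106509808-106509837, plus strand): aaggataaataAGCTATTActtatgtgctg
POLR1A (chr2:86026351-86026380, minus strand): tcattggaactAGCTATTAggaaagaaaaa
POLR2D (chr2:127844503-127844532, minus strand): tattgaaaaatAGCTATTAggagaccttgc
These genes did not share a direction. POLR3B, the second-largest Pol III subunit, had 19.0 and 17.0 CPM in the vector samples and 15.7 and 14.6 CPM in the shCHD7_2 samples (log2 fold change -0.25, adjusted p = 0.214). POLR2D, a stalk subunit of Pol II whose 3′ UTR held all 3 words, was at -0.13 (adjusted p = 0.371), and POLR1A, the largest Pol I subunit, was at 0.095 (adjusted p = 0.491).

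In Pol I the catalytic subunits and the remaining ones had opposite signs, though no member passed the adjusted threshold. POLR1B, the second-largest subunit, had 118.1 and 130.6 CPM in the vector samples and 151.6 and 142.8 CPM in the shCHD7_2 samples. Its groups did not overlap, and the log2 fold change of 0.24 (SE 0.081, adjusted p = 0.0528) lay just outside the threshold. POLR1C, a subunit shared with Pol III, was lower at 38.2 and 40.1 CPM after 46.8 and 44.0 CPM in vector (log2 fold change -0.21, 95% interval -0.40 to -0.026, adjusted p = 0.138). POLR1E, a Pol I subunit with a role in initiation and elongation, had 79.2 and 79.4 CPM against 68.9 and 69.6 CPM (log2 fold change -0.20, adjusted p = 0.14). For POLR1A and for POLR1D, which POLR1C pairs with in the assembly platform of both enzymes, the log2 fold changes were 0.095 and -0.053. The groups did not overlap for any of the 5, as for 53.7% of all genes tested. The median log2 fold change of the 5 was -0.053 (-0.028 without shCHD7_2 replicate 1 and -0.084 without shCHD7_2 replicate 2), and 5 of 5 intervals lay within 1.5-fold.

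Other Pol I and Pol III subunits appear in the table under older symbols, outside the rule. ZNRD1 (POLR1H) was at -0.35 (adjusted p = 0.0528), TWISTNB (POLR1F) at -0.19 (0.183), CD3EAP (POLR1G) at -0.085 (0.798) and the Pol III subunit CRCP at 0.014 (0.947), each a log2 fold change with its adjusted p, so that 0 of 4 passed.

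The catalytic subunits of Pol II did not differ detectably. POLR2A, the largest subunit with the repeat-bearing C-terminal domain, had 100.7 and 97.0 CPM in vector and 102.3 and 93.9 CPM in shCHD7_2 samples, with overlapping groups and a 95% interval of -0.18 to 0.16. POLR2B, the second-largest, had 247.1 and 250.6 against 244.3 and 222.5 CPM (log2 fold change -0.092, 95% interval -0.25 to 0.064). The 5 small subunits shared by all 3 enzymes, of which POLR2L was one, had a median log2 fold change of 0.15. POLR2E was at 142.3 and 118.4 CPM in vector and 138.9 and 163.6 CPM in shCHD7_2 samples, where the groups overlapped (log2 fold change 0.22, adjusted p = 0.145). POLR2F was at 0.15 and POLR2K at 0.12, and POLR2H was at -0.12, with adjusted p between 0.355 and 0.393. POLR2G, which pairs with POLR2D in the stalk, had 82.8 and 92.9 CPM against 74.7 and 79.7 CPM (log2 fold change -0.19, adjusted p = 0.179). The median over the 15 Pol II genes was -0.010.

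In Pol III the alternative subunits POLR3G and POLR3GL, which take the same place in the trimer that serves initiation, were both at higher values. POLR3G had 55.4 and 56.8 CPM in the vector samples and 67.8 and 66.4 CPM in the shCHD7_2 samples (log2 fold change 0.26, SE 0.085, adjusted p = 0.0515). POLR3GL had 22.5 and 23.5 CPM against 26.1 and 29.2 CPM (log2 fold change 0.26, SE 0.10, adjusted p = 0.11). Neither passed the threshold. The groups did not overlap for either, as for 53.7% of all genes tested. Together they had 38.9 and 40.2 FPKM in vector and 48.0 and 49.9 FPKM in shCHD7_2 samples. The division between them overlapped, with POLR3GL at 55.9% and 56.3% of the sum in vector and 54.4% and 57.6% in shCHD7_2 samples. POLR3D, a specific subunit, had 42.1 and 40.3 against 33.6 and 36.8 CPM (log2 fold change -0.23, adjusted p = 0.126). POLR3A, the largest subunit, had overlapping groups at 84.3 and 88.4 against 93.4 and 86.8 CPM (95% interval -0.11 to 0.24). Of the 10 Pol III genes 7 had a positive and 3 a negative log2 fold change, with a median of 0.037.

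By module, Mediator gave small values of both signs. In the head, which contacts the polymerase, both shCHD7_2 samples were above both vector samples for 6 of 7 subunits, which held for 26.4% of all genes tested, and the median log2 fold change was 0.14, with 0 of 7 past the adjusted threshold. MED20 had 20.5 and 21.9 CPM in vector and 25.3 and 24.8 CPM in shCHD7_2 samples (log2 fold change 0.24, adjusted p = 0.149). MED17, the head's central subunit, had 47.4 and 47.0 against 55.1 and 52.5 CPM (log2 fold change 0.19, adjusted p = 0.174). MED22 was the head subunit of the opposite sign (-0.13, adjusted p = 0.385). MED27, MED28, MED29 and MED30, placed in the head or the tail, were counted in neither. Their median log2 fold change was -0.013, and 0 of the 4 passed. The groups overlapped for 3 of them, and both shCHD7_2 samples were higher for 1. In the middle module, where MED10 and MED21 belong, 5 of 9 subunits were positive and 4 negative. MED1, the subunit that binds nuclear receptors, had overlapping groups at 129.6 and 149.4 against 153.9 and 138.0 CPM (95% interval -0.11 to 0.24). The scaffold MED14 also had overlapping groups, at 156.6 and 161.7 against 175.1 and 158.3 CPM (95% interval -0.096 to 0.23). The tail had 3 positive and 2 negative members with a median of 0.056, and 0 of 5 passed.

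The kinase module had a median log2 fold change of -0.11, and 0 of its 6 genes passed. MED12, which activates the kinase, had 77.9 and 72.7 CPM in vector and 73.4 and 65.9 CPM in shCHD7_2 samples (log2 fold change -0.11, adjusted p = 0.462). CCNC, the cyclin partner, had 86.5 and 95.5 against 95.6 and 87.6 CPM (log2 fold change 0.010, 95% interval -0.17 to 0.19). Of the alternative kinases CDK8 was the more abundant per length, with 80.4% to 82.0% of the summed FPKM of CDK8 and CDK19 over the 4 samples and no separation of the groups. CDK8 had 56.6 and 61.2 against 55.4 and 54.3 CPM (log2 fold change -0.10, adjusted p = 0.50), and CDK19 had 29.6 and 30.9 against 28.6 and 25.6 CPM (-0.16, adjusted p = 0.347). MED13 took 60.7% and 58.3% of the summed FPKM of MED13 and MED13L in vector and 57.4% and 54.9% in shCHD7_2 samples. These shares did not overlap, but the nearest, 58.3% and 57.4%, were closer together than the replicates of either group. In CPM the groups overlapped for MED13 and for MED13L. The log2 fold change of MED13 was -0.12 (adjusted p = 0.46) and that of MED13L 0.075 (adjusted p = 0.672), and the difference between them was not tested. MED12L had no row under that symbol and was not analysed here.

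POLR2J, POLR2J2 and POLR2J3 are near-identical copies, and their values depend on how reads were divided. POLR2J carried 63.8% to 70.3% of their summed FPKM and POLR2J2 3.79% to 4.61%. The log2 fold changes were 0.16 for POLR2J, -0.031 for POLR2J2 and -0.00017 for POLR2J3, all uncertain for the same reason. Counts were not whole in at least 1 sample for 10 members, these 3 among them, and were whole in every sample for the other 52.

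Within the groups, differences between replicates moved with transcript GC content and length. The log2 difference between the shCHD7_2 samples, replicate 2 minus replicate 1, rose with the GC content of the longest annotated mRNA (Spearman's rho 0.62 over 62 members, and 0.56 over 11719 genes with a value). It fell with transcript length (rho -0.66 and -0.49). Between the vector samples both relations had the opposite sign (-0.42 and -0.53 with GC content, 0.12 and 0.24 with length). These are descriptions across genes of 2 libraries each. POLR2L, at 60.1% GC, differed by 0.40 between the shCHD7_2 samples, and MED21, at 36.8% GC, by -0.19. MED10, at 46.2% GC, differed by 0.056. The log2 fold change between groups was more weakly related to GC content (rho 0.20 in members and 0.18 in all genes). With an offset for GC content and length in each library, an alternative chosen after the data were seen, 18 of 62 members had an adjusted p under 0.05, against a background of 27.7%, and again 0 reached 1.5-fold. The log2 fold changes of MED10, MED21 and POLR2L in that fit were -0.38, -0.31 and 0.28, and POLR3G and POLR1B passed at 0.34 and 0.25. Its p-values leave out the error of the offsets themselves.

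The factors that work with these complexes were taken from 8 lists of 133 genes, of which 127 were tested, 4 passing as higher and 5 as lower. Both were smaller shares than the 4.94% and 6.54% of all genes tested that were called higher and lower. Among the 35 general Pol II factors MNAT1, the assembly factor of the kinase part of TFIIH, fell from 63.0 and 69.1 CPM to 49.1 and 51.2 CPM (log2 fold change -0.40, adjusted p = 0.00414), and the list's median was -0.0037. Of 35 pausing and elongation factors tested, the elongation factors ELL (-0.44) and TCEA1 (-0.35) were lower and the 7SK capping enzyme MEPCE was higher (0.24), with adjusted p of 0.0065, 0.0044 and 0.0445. Integrator, the complex that cleaves nascent RNA on Pol II, had INTS1 (0.36) and INTS5 (0.54) higher and INTS10 (-0.37) lower among 14 tested. INTS5, at 26.5 and 22.6 CPM in vector and 33.6 and 37.6 CPM in shCHD7_2 samples, was the one with the largest absolute value among the 9 (adjusted p = 0.00143). Of 16 Pol III factors GTF3C1, the largest subunit of TFIIIC, was higher (0.27, adjusted p = 0.0212). Of 12 polymerase assembly factors URI1, a prefoldin-like protein that binds a shared subunit, was lower (-0.44, adjusted p = 0.0014). Among 8 Pol I factors and 3 genes of the mitochondrial polymerase 0 passed. None of these 9 calls held without the filter on low counts (adjusted p from 0.0624 to 0.178) or in limma without one. MEPCE did not pass in DESeq2 (adjusted p = 0.0669) or without shCHD7_2 replicate 2, and ELL did not in limma on log2(FPKM + 1) (adjusted p = 0.0707). Without vector replicate 1, 4 of the 9 were lost, and without vector replicate 2, 7 were. The medians of the 8 lists lay between -0.14 and 0.13.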

How the data were processed

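Per the labels, RKO cells carried a control vector or CHD7 shRNA2, with 2 samples each, numbered as replicates 1 and 2. The authors deposited estimated counts of reads per gene, not normalized, and FPKM values, normalized to transcript length and library size. The submitters' processing notes name hg38, Bowtie2, RSEM and DESeq2; their roles and versions, the annotation and the strand setting are not given in the sources used here, so overlapping and antisense genes cannot be told apart.

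Counts were rounded to whole numbers, filtered with filterByExpr, scaled by TMM and tested across 11955 genes with the quasi-likelihood test of edgeR 4.0.16 (R 4.3.3), with Benjamini-Hochberg adjustment. CPM are TMM-scaled, standard errors come from the quasi-likelihood F statistic, and intervals are at 95%. Totals were 15734679 to 16068650 reads, 13.6% to 14.7% of values were not whole, and the biological coefficient of variation was 0.0579. On simulated data for this comparison, with 11884 genes tested, edgeR called 98 of 100 genes changed 1.5-fold and DESeq2 86 of 100. The simulated counts had the same dispersion for every gene and no replicate difference that moved with GC content or length. They therefore do not give the detection rate in the real libraries. Replicates differed beyond sampling noise (chi-square per gene 3.47 in vector and 5.17 in shCHD7_2). Gene positions and 3′ UTRs are from GENCODE 29 on GRCh38, where the full-length POLR2A transcript is not annotated as coding, so its base composition is that of a shorter one.

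Alternatives were DESeq2 size factors, DESeq2 1.42.0, no filter, a replicate block, limma 3.58.1 on log2 of FPKM plus 1 or 0.1 with a mean FPKM of at least 1 or no filter, and leaving out each sample; offsets for GC content and length and a crossed pairing were chosen after seeing the data. The members and lists were chosen with earlier results of these data known. Named were members with adjusted p under 0.05, the 3 with the smallest p per complex, the catalytic and shared subunits, paralogues, CCNC, MED1 and MED14, the 3 highest and 3 lowest by FPKM, and up to 4 passing genes per list; POLR2D, MED17, MED22 and the subunits under older symbols were named after their values were seen.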

Additional observations from a re-analysis of the deposited data

How the results depend on the processing

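In every fit 0 members passed both thresholds. Over 62 members and 13 alternatives, 682 of 806 log2 fold changes kept their direction and side of the threshold, 40 newly passed, 20 no longer passed, 64 of members that had not passed changed sign, and no called value changed sign. The 20 losses all fell on MED10, MED21 and POLR2L, the only members with a call to lose. Of these 3, 0 were still called in DESeq2, with a replicate block, without a filter or in limma without a filter. In limma at either pseudocount 2 were. All 3 were with DESeq2 size factors, the offsets and the crossed pairing. Members at adjusted p alone numbered 0 with DESeq2 and without a filter, 5 with limma at either pseudocount, 0 with limma without a filter, 18 with the offsets and 1 to 6 without single samples (1 without vector replicate 1 or 2, 2 without shCHD7_2 replicate 2 and 6 without shCHD7_2 replicate 1), against 3. Genes at adjusted p alone, 1373 in the report's fit, numbered 800 with DESeq2, 197 without a filter, 24 with limma without a filter, 3314 with the offsets and 610 to 1702 without single samples, the lowest without vector replicate 2 and 818 without vector replicate 1. The highest of the numbers without single samples was that without shCHD7_2 replicate 1, the fit with 6 members. Limma at pseudocounts of 1 and 0.1, with 5 members each, gave 1142 and 1126 genes at adjusted p alone, against 1373. Genes past both thresholds, 344 in the report's fit, numbered 221 with DESeq2, 141 without a filter, 172 with limma at a pseudocount of 1, and 23 with it without a filter. The cause of these differences was not tested.

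The median log2 fold change of Mediator was 0.0197 with DESeq2 size factors or DESeq2, 0.0129 without a filter, 0.0609 and 0.0625 with limma at pseudocounts of 1 and 0.1, 0.0609 with limma without a filter, 0.0526 with the offsets and 0.00576 to 0.0336 without single samples. That of Pol I was -0.0838 to -0.0281 without single samples. That of Pol II was 0.0319, 0.0325 and 0.0319 in the same limma fits and -0.0288 to 0.0268 without single samples, and that of Pol III was 0.0748, 0.0788 and 0.0748, and 0.0143 to 0.0367 without single samples. A fit without 1 sample assumes that the lone sample varies as the other group does.

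The replicate numbers carry no stated pairing, and deviations of same-numbered samples correlated at -0.252 over genes. A replicate block left 755 genes and 0 members at adjusted p alone, and 329 genes past both thresholds, and 3 of the 9 related factors at adjusted p alone were lost (GTF3C1, MEPCE and INTS10). The crossed pairing, chosen after seeing the data, gave 3751 genes and 17 members at adjusted p alone, and 423 genes past both thresholds. The largest standard errors of the log2 fold change were at MED31 (0.145) and MED7 (0.142), with mean counts of 194.6 and 178.5. POLR2J2 had a lower mean count, 176.1, and a standard error of 0.140. The part of depth in these errors was not tested.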
